A study of Mus musculus with 4 samples.

Results

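The carnitine shuttle of mouse liver was examined through 6 genes, namely Slc22a5, Cpt1a, Slc25a20, Cpt2, Crat and Crot, on 4 pooled arrays that combine genotype with feeding state. The members were all probe sets whose annotation gives 1 of these symbols and no other gene. This gave 12 probe sets for 6 genes, out of 20380 probe sets that name 12393 genes on the array. Liver RNA came from male mice 3 to 5 months old, either PPARα-null (129S4/SvJae) or wild-type (129S1/SvImJ, labelled 129Sv). They were fasted for 24 hours or were fed and killed as the dark period ended. RNA was pooled within each of the 4 groups (fasted null, fasted wild-type, fed null and fed wild-type), from 5 mice per pool in the deposited description and from 4 to 5 in the study's methods, and measured on 1 Affymetrix MOE430A array per group. PPARα was absent from the whole animal rather than from hepatocytes alone, and the genotypes came from different substrains, so an effect of the receptor and an effect of the substrain cannot be told apart. With 1 array per group no difference has a replicate check and no p-value was computed.

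Long-chain fatty acids cannot cross the inner mitochondrial membrane as acyl-CoA and are carried across as esters of carnitine. The transporter encoded by Slc22a5 (OCTN2) brings carnitine into the cell. Cpt1a, in the outer mitochondrial membrane, forms the acylcarnitine and is the step inhibited by malonyl-CoA. The carrier Slc25a20 exchanges acylcarnitine for free carnitine across the inner membrane, and Cpt2 returns the acyl group to CoA in the matrix for β-oxidation. Crat handles acetyl and other short acyl groups, and Crot handles the medium-chain products of peroxisomal oxidation. During fasting fatty acids from adipose tissue reach the liver and the shuttle is used to make ketone bodies, and PPARα is a nuclear receptor for fatty acids known to govern many of the genes involved.

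The values are GCRMA intensities in linear units. A value under 16 units (log2 of 4) was set to that floor, and each gene was read from its brightest probe set on average (mean log2 over the 4 arrays). A gene was counted as measured in a comparison when at least 1 of the 2 arrays was above the floor, and as lower or higher when the arrays differed by 1.5-fold or more. The medians of the 4 arrays lay between 14.4 and 14.6 units, and 23.0% to 23.7% of the probe sets were at 64 units or more. Ppara, the disrupted gene, read 16.3 units in fasted null and 755 units in fasted wild-type liver, and 104 units in fed null and 583 units in fed wild-type liver, in the direction of the labels. All 9 hepatocyte markers with a probe set of their own were above the floor, with a summed level of 100749 units in fasted null, 87141 in fasted wild-type, 82380 in fed null and 81534 in fed wild-type liver. Different probe sets of 1 gene scattered with an SD of 0.37 (fasted genotype comparison), 0.21 (fed genotype comparison), 0.28 (fasting in wild-type) and 0.45 (fasting in null) on the log2 scale, over 1145 genes.

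In the probe set used for each gene, all 6 members had their highest value in fasted wild-type liver. Of the 6947 measured genes, 24.3% were highest on that array. The other Cpt1a probe sets were highest in fasted null liver, at 2022 against 1732 units and 1502 against 1469 units in fasted wild-type liver. The lowest value was in fed null liver for Slc22a5, Cpt1a and Slc25a20, in fasted null liver for Cpt2 and Crot, and in fed wild-type liver for Crat. The highest array of a member exceeded its lowest by 10.4-fold for Slc25a20, 7.86-fold for Crat, 6.33-fold for Cpt2, 3.92-fold for Crot and 3.77-fold for Cpt1a. Slc22a5 lay below the floor in both fed pools. The fasted wild-type array enters both the fasted genotype comparison and the wild-type fasting response, so these share its value and are not independent of each other.

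**Figure D1:**
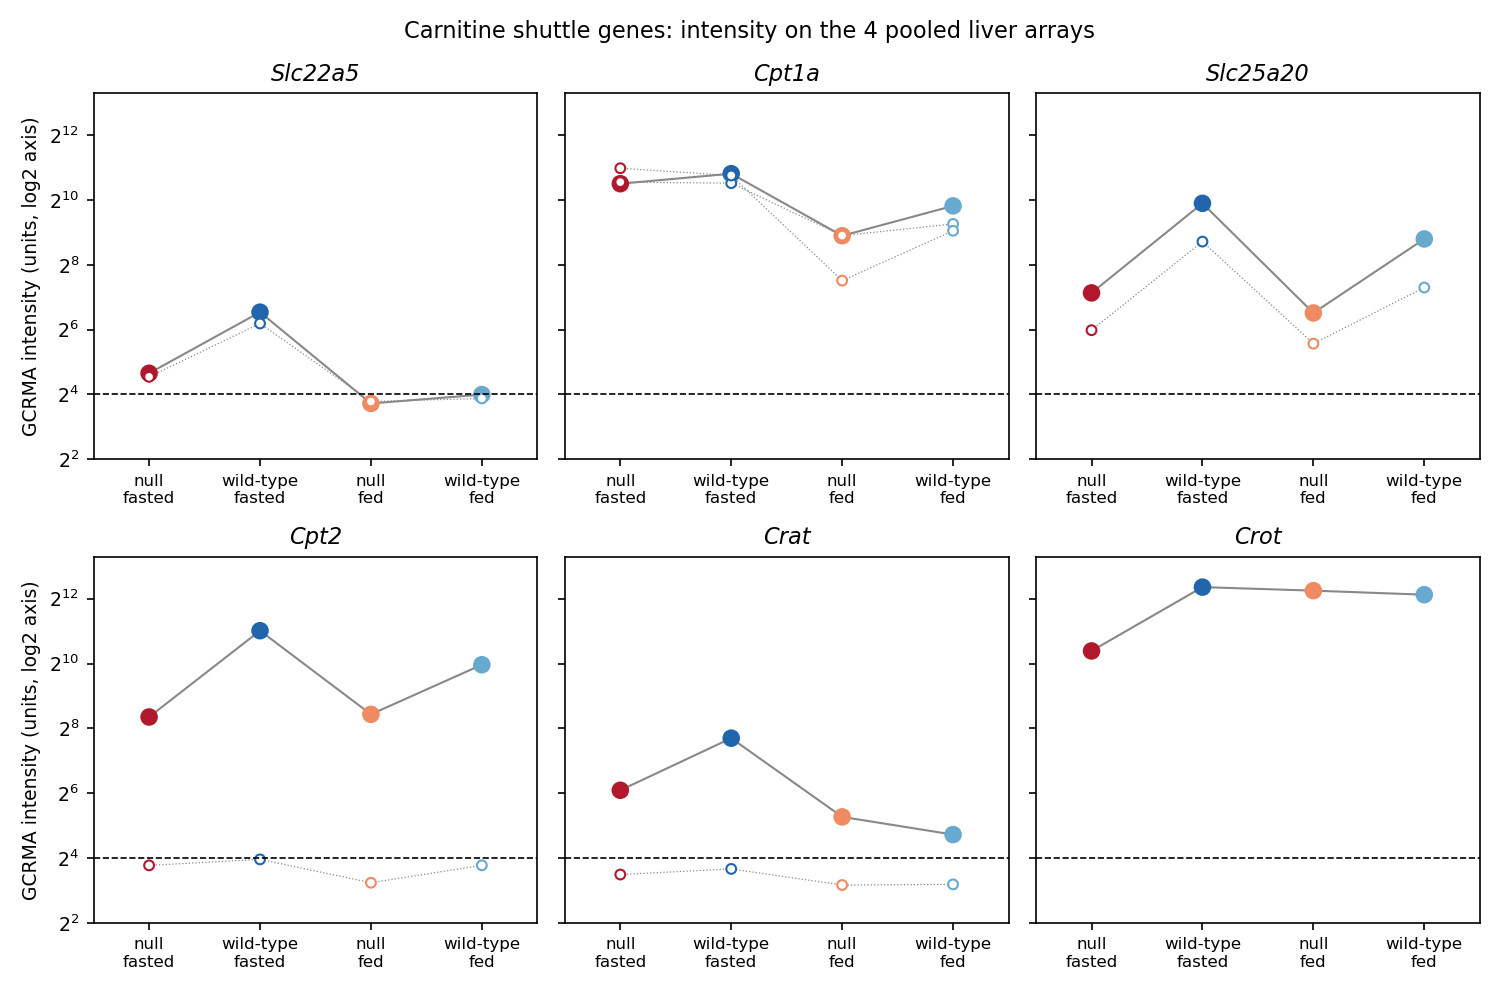
GCRMA intensity (log2 axis, linear units) of every probe set of the 6 genes on the 4 pooled arrays, with 1 array per group. Large filled points are the probe set used for the gene, small open points the remaining probe sets, lines join the points of 1 probe set, and the dashed line is the floor of 16 units. Cpt2 reads 326 and 345 units in the null pools against 2067 and 998 units in the wild-type pools, while Crot is low in fasted null liver alone, at 1340 units.

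Comparing fasted null with fasted wild-type liver asked which steps of the shuttle differ when PPARα is missing once fatty acids have been mobilised. In the fasted state 5 of the 6 genes were lower in null liver and 0 were higher, with Cpt1a below the threshold. Of the 6754 genes measured in this comparison, 14.0% were lower and 8.82% were higher. The median log2 difference of the members was -1.93, beside -0.02 for all measured genes. Slc25a20 and Cpt2 had the largest deficits. In this comparison 31 genes lay below Slc25a20 (0.459% of those measured) and 39 below Cpt2 (0.577%), whereas 26.3% lay below Cpt1a.

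Slc25a20, the carrier of the inner membrane, read 140 units in fasted null and 955 units in fasted wild-type liver, and 91.4 units in fed null and 445 units in fed wild-type liver. Both null pools were therefore below both wild-type pools. The gene was 6.79-fold lower in null liver when fasted and 4.87-fold lower when fed. The fed difference was among the largest of its comparison, with 5 of 6536 genes below it. A second, dimmer probe set read 63.2 units in fasted null and 421 units in fasted wild-type liver, and 47.4 units in fed null and 158 units in fed wild-type liver. That probe set, marked by its suffix as open to cross-hybridization within a gene family, gave deficits of 6.65-fold and 3.32-fold, with the same order of the arrays.

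Cpt2, the transferase on the matrix side, showed the same division by genotype. It read 326 units in fasted null and 2067 units in fasted wild-type liver, and 345 units in fed null and 998 units in fed wild-type liver. The deficit in null liver was 6.33-fold in the fasted state and 2.89-fold in the fed state. In null liver the fasted and fed pools were within 1.06-fold of each other, whereas in wild-type liver the fasted pool was 2.07-fold above the fed one. The other Cpt2 probe set was under the floor on all 4 arrays and gave no measurement.

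Sequence around the start site was compared for these genes with that of Cpt1a, since Slc25a20 and Cpt2 moved together over the 4 pools and Cpt1a did not move with them. PPARα binds with its partner RXR to a direct repeat of the hexamer AGGTCA with 1 base between the copies. RefSeq promoters (build GRCm38.p6, 250 bases before to 50 after the start) matched 5 of the 6 genes, all but Crat. They were searched on both strands with at most 3 mismatches in the 12 fixed bases. In this window 1 gene, Slc25a20, held a match, with 2 mismatches, from base 7 to base 19 after the start. Matches with at most 2 mismatches occurred in 3.86% and with at most 3 in 24.6% of all 32851 promoters of the table. The match is shown in capitals with 8 bases on each side (plus strand, chr9:108662134-108662162).
Slc25a20 match: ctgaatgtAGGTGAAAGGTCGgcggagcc

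The 250 bases before the start are given for the pair with the largest fasted deficits and for Cpt1a. Capitals mark an exact copy of the hexamer on either strand, which 1 of the 5 members (Cpt1a) and 16.3% of all promoters held within the 300 bases. Slc25a20 lies on the plus strand (chr9:108661886-108662135), Cpt2 on the minus strand (chr4:107923590-107923839) and Cpt1a on the plus strand (chr19:3323051-3323300), and each is written in the direction of its gene. A match of letters is a description of the sequence and does not show a binding site, and sites outside this window were not searched.
Slc25a20: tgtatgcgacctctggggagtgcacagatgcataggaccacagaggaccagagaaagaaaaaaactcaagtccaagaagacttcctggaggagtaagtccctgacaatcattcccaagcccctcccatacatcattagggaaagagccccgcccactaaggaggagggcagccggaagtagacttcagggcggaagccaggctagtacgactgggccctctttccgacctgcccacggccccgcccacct
Cpt2: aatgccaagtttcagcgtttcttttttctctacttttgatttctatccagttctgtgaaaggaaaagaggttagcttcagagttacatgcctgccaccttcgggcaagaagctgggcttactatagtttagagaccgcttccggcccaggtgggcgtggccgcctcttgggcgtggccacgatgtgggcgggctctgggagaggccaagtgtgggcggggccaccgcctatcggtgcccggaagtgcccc
Cpt1a: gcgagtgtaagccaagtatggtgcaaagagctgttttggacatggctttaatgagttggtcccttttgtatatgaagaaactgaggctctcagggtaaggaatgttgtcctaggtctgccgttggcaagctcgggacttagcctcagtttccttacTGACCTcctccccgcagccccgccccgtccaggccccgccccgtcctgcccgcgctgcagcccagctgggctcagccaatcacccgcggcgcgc

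Cpt1a, the malonyl-CoA-sensitive transferase of the outer membrane, differed between the feeding states in both genotypes. It read 1452 units in fasted null and 1799 units in fasted wild-type liver, and 477 units in fed null and 904 units in fed wild-type liver. Both fasted pools were above both fed pools. Fasting was accompanied by a 3.04-fold higher value in null and a 1.99-fold higher value in wild-type liver. The fasted genotype difference of -0.31 (log2) was smaller than the scatter between probe sets.

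Cpt1a was the member with the most probe sets, and they did not give it 1 direction in the fasted genotype comparison. The probe set used carries a suffix that marks it as open to cross-hybridization, as does 1 of the others. The probe set without a suffix read 2022 units in fasted null and 1732 units in fasted wild-type liver, a log2 difference of 0.22, and the third read 1502 and 1469 units, a difference of 0.03. No direction can therefore be given for Cpt1a between the fasted genotypes. In the fed state all 3 were lower in null liver, by 1.89-fold, 2.90-fold and 1.28-fold, the last of which did not reach the threshold. The fed levels in the probe set without a suffix were 183 units in null and 531 units in wild-type liver, and in the third 478 and 614 units. In all 3 probe sets the fasting difference was larger in null than in wild-type liver, at 3.04-fold against 1.99-fold, 11.1-fold against 3.26-fold and 3.14-fold against 2.39-fold. The difference between the genotypes in these responses has no replicate and was not tested.

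Slc22a5, the carnitine transporter of the plasma membrane, was a dim gene that was measured in the fasted pools alone. It read 25.2 units in fasted null and 93.0 units in fasted wild-type liver, and 13.2 units in fed null and 15.9 units in fed wild-type liver. In the fasted state it was 3.70-fold lower in null liver. Against the floor in the fed pools, the fasted pool was at least 1.57-fold higher in null and at least 5.81-fold higher in wild-type liver. A second probe set with values of 23.3 units in fasted null and 73.0 units in fasted wild-type liver was also below the floor in both fed pools and gave a deficit of 3.13-fold. The genotypes could not be compared for Slc22a5 in the fed state.

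Crat, the carnitine acetyltransferase of mitochondria and peroxisomes, had a large fasting difference in wild-type liver. It read 68.1 units in fasted null and 207 units in fasted wild-type liver, and 38.5 units in fed null and 26.4 units in fed wild-type liver. The fasted pools were again above the fed pools in both genotypes. The fasting difference was 1.77-fold in null and 7.86-fold in wild-type liver, where 20 of 6574 genes had a larger positive one. Null liver was 3.05-fold lower than wild-type liver when fasted. When fed it was 1.46-fold above wild-type, under the threshold, and 3.08% of the measured genes had a larger positive fed difference. The second Crat probe set was under the floor on all 4 arrays.

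Crot, the peroxisomal carnitine octanoyltransferase, was low in fasted null liver and similar in the other pools. It read 1340 units in fasted null and 5250 units in fasted wild-type liver, and 4869 units in fed null and 4466 units in fed wild-type liver. The 3 pools other than fasted null liver were within 1.18-fold of each other. Fasted null liver was 3.92-fold below fasted wild-type and 3.63-fold below fed null liver. The fed genotype difference was 1.09-fold, with the null pool above, and the fasting difference in wild-type liver was 1.18-fold. Crot has a single probe set on the array, so no second reading of it was available.

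**Figure D2:**
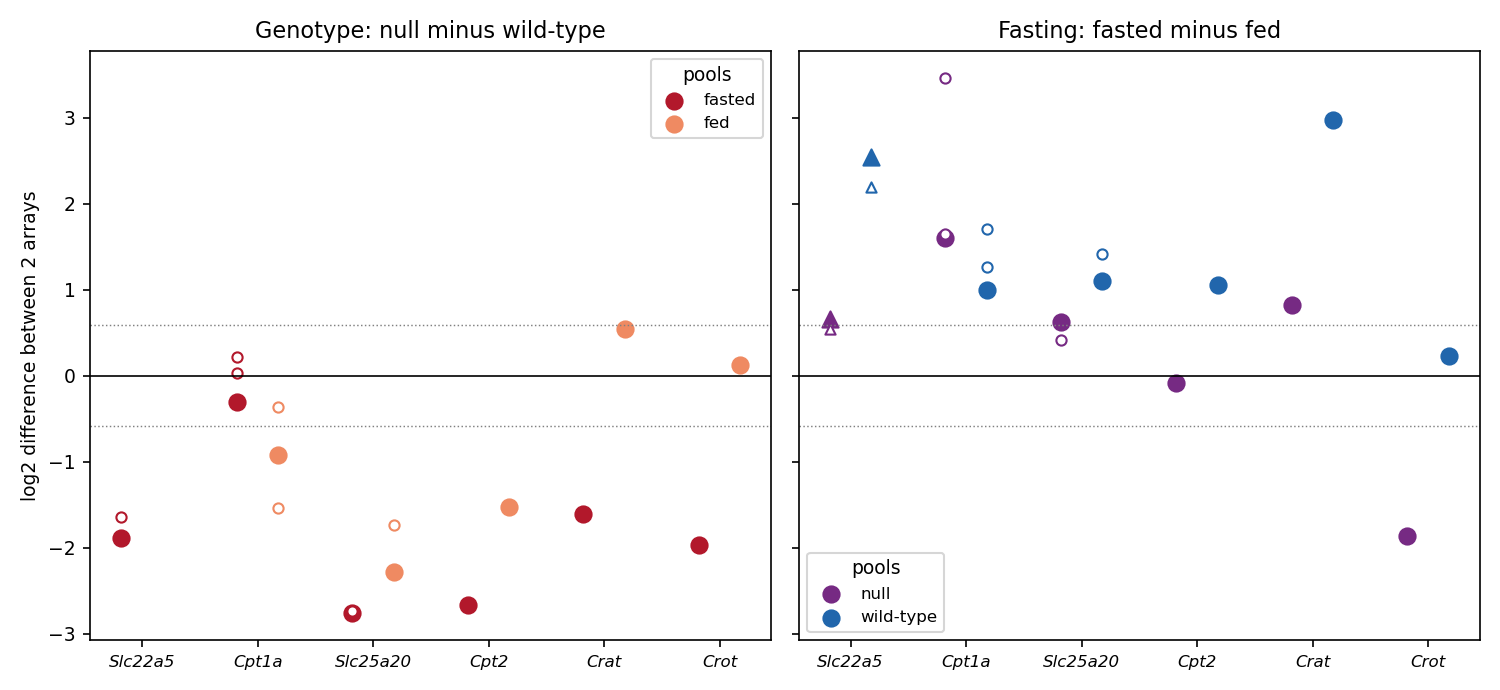
Log2 differences between 2 arrays for the 6 genes, null minus wild-type (left, fasted and fed pools) and fasted minus fed (right, null and wild-type pools). Large filled points are the probe set used for the gene, small open points its other measured probe sets, triangles are lower bounds against the floor of 16 units, and dotted lines mark 1.5-fold. Slc25a20 and Cpt2 are below the lower dotted line in fasted and in fed pools, whereas Crat and Crot pass it in the fasted pools alone.

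In the fed state the comparison of genotypes asked whether the shuttle differs before fatty acids are mobilised. In the fed pools 3 of the 5 measured genes were lower in null liver (Slc25a20, Cpt2 and Cpt1a) and 0 were higher, where 2.25% of all 6536 measured genes were lower and 2.52% were higher. The median log2 difference of the measured members was -0.92, beside -0.0028 for all genes. Slc22a5 was not measured in the fed pools. A further probe set of Cpt1a, 1.28-fold lower in fed null liver, did not reach the threshold. Crat and Crot had fed log2 differences of 0.55 and 0.12.

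Fasting in wild-type liver was accompanied by higher values of 5 of the 6 genes and lower values of 0, where 8.67% of 6574 measured genes were higher and 8.76% were lower. Crot, at a log2 difference of 0.23, was the member below the threshold. The median was 1.08 for the members and 0.01 for all genes. In null liver 4 of the 6 genes were higher after fasting (Cpt1a, Crat, Slc22a5 and Slc25a20) and 1 was lower (Crot), where 12.7% of 6799 measured genes were higher and 18.4% were lower. The members' median there was 0.64, beside -0.02 for all genes. Cpt2 had a log2 difference of -0.08 in null liver. Of the 4 higher values in null liver, those of Slc25a20 (1.54-fold) and Slc22a5 (at least 1.57-fold) were close to the threshold, and their second probe sets, at 1.33-fold and at least 1.46-fold, did not reach it.

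The fasting response of null liver minus that of wild-type liver separated the members further. On the log2 scale this difference was -2.15 for Crat, -2.09 for Crot, -1.89 for Slc22a5, -1.13 for Cpt2, -0.48 for Slc25a20 and 0.61 for Cpt1a, with a median of -1.51 beside -0.03 for the 6947 genes measured on at least 1 array. The value for Slc22a5 has both fed values at the floor, was -1.61 without a floor and -0.54 with the floor at 64 units, and is given no rank. The members' median rests partly on it, and was -1.37 without a floor and -0.84 with the floor at 64 units. Of the measured genes 0.864% lay below Crat, 0.964% below Crot, 4.74% below Cpt2 and 18.7% below Slc25a20. A share of 8.54% lay above Cpt1a. The probe sets of Slc25a20 differed here, at -0.48 for the one used and -1.002 for the dimmer one. The other probe sets of Cpt1a gave 0.39 and 1.76. Probe sets of 1 gene scattered with an SD of 0.28 in the wild-type and 0.45 in the null fasting response, which both enter this difference. The values of Slc25a20 and Cpt1a in the probe sets used were of similar size to that scatter. For Crat the genotype difference was -1.61 in fasted and 0.55 in fed liver, and for Crot it was -1.97 and 0.12.

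**Figure D3:**
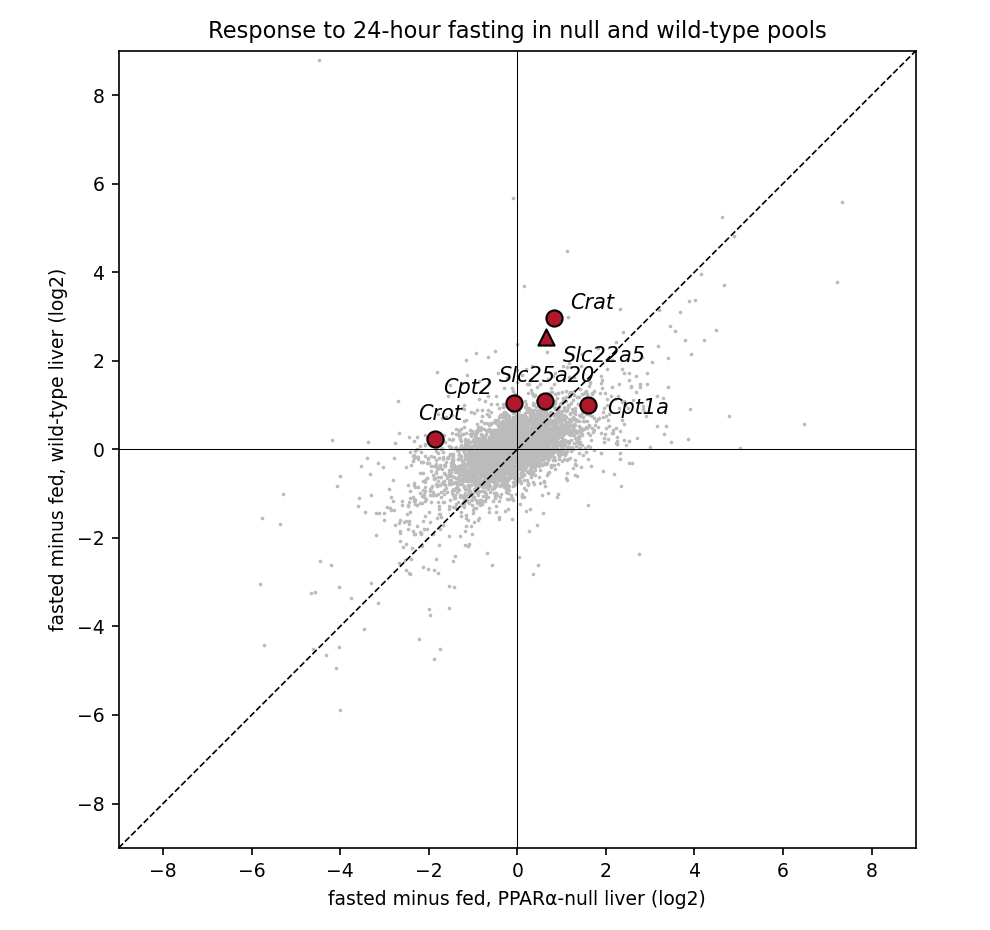
Log2 difference between fasted and fed liver in PPARα-null (horizontal axis) and wild-type pools (vertical axis) for 6426 genes (grey) and the 6 carnitine shuttle genes (red, with a triangle for Slc22a5, whose values are lower bounds). Dots on the dashed diagonal respond alike in both genotypes. Cpt1a is to the right of the diagonal at 1.61 in null and 0.99 in wild-type liver, and the other 5 genes are to its left, with Crot at -1.86 in null and 0.23 in wild-type liver.

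The likeness of the members was measured as the root mean square difference between log2 profiles over the 4 arrays, each centred on its own mean. Of the 15 pairs of members, Slc22a5 and Crat were the nearest at 0.26, followed by Slc25a20 and Cpt2 at 0.33. The remaining 13 pairs lay between 0.66 and 1.37, with Crat and Crot the farthest apart. These are descriptions over 4 pooled arrays, and 2 of the 4 values of Slc22a5 were at the floor, so its distances rest partly on the floor. The distances of Cpt1a rest on the probe set used alone, and its other probe sets were highest in fasted null liver.

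Outside the shuttle, 2896 genes with at least 128 units on their brightest array were searched for similar profiles. The nearest to Cpt2 was Etfdh, the oxidoreductase that passes electrons from fatty acid oxidation to ubiquinone, at a distance of 0.05, followed by Pxmp4, a peroxisomal membrane protein gene (0.13), and Ech1, a dienoyl-CoA isomerase gene (0.17). Etfdh read 433 units in fasted null and 2549 units in fasted wild-type liver, and 464 units in fed null and 1279 units in fed wild-type liver. The same genes were nearest to Slc25a20, with Ech1 at 0.27, Etfdh at 0.36 and Pxmp4 at 0.41.

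For the remaining members the nearest profiles were of other kinds. Slc22a5 and Crat had their 3 nearest genes in common, with Tbc1d8 at 0.12 and 0.24, Vwa8 at 0.13 and 0.38, and Pex11a, a gene of peroxisome division, at 0.20 and 0.26. Pex11a read 283 units in fasted null and 1168 units in fasted wild-type liver, and 144 units in fed null and 146 units in fed wild-type liver. The nearest to Crot were Chdh, the choline dehydrogenase gene (0.07), the glucose transporter gene Slc2a2 and Helz2 (0.10 each). Those of Cpt1a were Csrp3 (0.10), the circadian output factor gene Tef (0.11) and Zmym5 (0.14), of which Csrp3 read 130 units in fasted null and 162 units in fasted wild-type liver, and 40.4 units in fed null and 68.3 units in fed wild-type liver. These neighbours belong to the Cpt1a probe set used. Its other probe sets, which were highest in fasted null liver, were not searched. For the mean profile of all 6 members the nearest genes were Fbxo21 (0.04), the mitochondrial aspartate-glutamate carrier gene Slc25a13 (0.18), Hacd3 (0.20), Gna12 (0.21) and Hsdl2 (0.23).

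Genes of carnitine supply were read at the level of RNA, and carnitine itself was not measured. Of the 3 measured genes of carnitine synthesis and transport, 2 were lower in the null pool after fasting and 0 were higher (median -0.92), where 14.0% of all genes were lower. Bbox1, whose enzyme makes carnitine from γ-butyrobetaine, read 339 units in fasted null and 1170 units in fasted wild-type liver, and 791 units in fed null and 920 units in fed wild-type liver. Fasted null liver thus had the lowest Bbox1 value, 3.45-fold below fasted wild-type. Aldh9a1, the dehydrogenase of the preceding step, was 1.89-fold lower, at 3915 units in fasted null and 7412 units in fasted wild-type liver. Tmlhe, the first enzyme of the pathway, differed by fasting rather than by genotype, at 63.2 units in fasted null against 183 units in fed null liver and at 85.0 units in fasted wild-type against 216 units in fed wild-type liver. In the fed pools 0 of the 3 genes were past the threshold. The transporter genes Slc22a4 and Slc22a21 were below the floor on all arrays.

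Malonyl-CoA, which inhibits Cpt1a, is made by Acaca and Acacb and broken down by Mlycd. Acacb read 35.3 units in fasted null and 24.4 units in fasted wild-type liver, and 19.4 units in fed null liver, with fed wild-type liver under the floor. Mlycd read 42.6 units in fasted null and 69.1 units in fasted wild-type liver, and 34.8 units in fed null and 41.9 units in fed wild-type liver, and was 1.62-fold lower in fasted null liver. Acaca was below the floor on all arrays. The list of acyl-CoA supply had 4 of 9 measured genes lower and 0 higher in fasted null liver, and the median was -0.37. Among all measured genes 14.0% were lower and 8.82% higher in that comparison. Acsl5, an acyl-CoA synthetase gene, was 2.96-fold lower, Fabp1, the liver fatty acid binding protein gene, 2.64-fold lower, and Slc27a2 and Acot13 had log2 differences of -0.67 and -0.65. In the fed pools 1 of the 9, the fatty acid uptake gene Cd36, was higher in null liver, by 2.72-fold, and 0 were lower. Among all measured genes 2.52% were higher and 2.25% lower there.

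Most genes of the pathways that the shuttle connects were lower in fasted null liver. In the fasted genotype comparison 14.0% of all measured genes were lower and 8.82% were higher. Of 16 measured genes of mitochondrial β-oxidation downstream of the shuttle, 14 were lower in the null pool after fasting and 0 were higher (median -1.01). Eci1, Etfdh, Acadvl and Decr1 differed most, by -2.86, -2.56, -1.75 and -1.68 on the log2 scale. Of 13 measured genes of peroxisomal oxidation, which produces the substrates of Crat and Crot, 11 were lower and 0 higher (median -1.72), and Decr2 (-4.07) and Ehhadh (-2.77) were at the lower end. In the fed state 2.25% of all genes were lower and 2.52% higher. Of the 16 genes listed as mitochondrial 6 were lower and 0 higher (median -0.26). Of the 13 listed as peroxisomal 3 were lower and 1 was higher (median -0.12). These counts depend on the listing. Eci2 (fed log2 difference -2.01) was placed with the mitochondrial genes, and Pex11a, a gene of peroxisome division, with the peroxisomal ones. After fasting in null liver 2 of the 16 mitochondrial genes were higher and 3 lower, and 1 of the 13 peroxisomal genes was higher and 3 lower, near the 12.7% higher and 18.4% lower among all genes. After fasting in wild-type liver 10 of the 16 and 11 of the 13 were higher and 0 were lower, beside 8.67% higher and 8.76% lower among all genes.

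Slc25a20 belongs to the SLC25 family of mitochondrial carriers, and the family as listed did not move in 1 direction. Of 21 other measured family members, 6 were lower and 5 were higher in the null pool after fasting (median 0.07), where 14.0% of all genes were lower and 8.82% higher. Slc25a51, a carrier gene of NAD, was 3.26-fold higher and Slc25a25 1.96-fold higher in fasted null liver, while Slc25a30 was 2.87-fold and Slc25a13 2.66-fold lower. The log2 difference of Slc25a20, -2.76, was below that of each of the 21. In the fed comparison 3 of the 21 were lower and 0 higher, beside 2.25% lower and 2.52% higher among all genes, and Slc25a22, a glutamate carrier gene, had the largest difference at -1.41, beside -2.28 for Slc25a20.

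**Figure D4:**
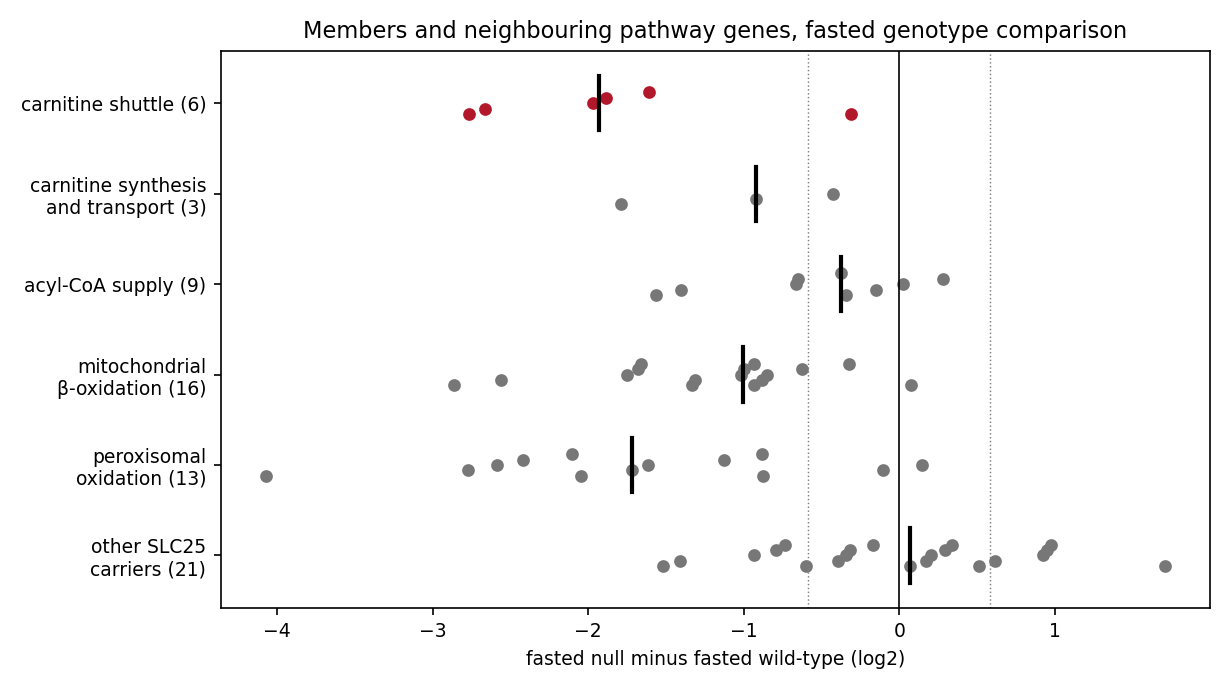
Log2 difference between fasted null and fasted wild-type liver for the 6 carnitine shuttle genes (red) and for the measured genes of 5 neighbouring lists (grey, number in brackets), with 1 dot per gene, vertical offsets for legibility, a bar at the median and dotted lines at 1.5-fold. The shuttle genes have a median of -1.93, mitochondrial β-oxidation -1.01, peroxisomal oxidation -1.72 and the other SLC25 carriers 0.07.

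Markers of other cells also differed between the pools. Among all measured genes 8.82% were higher and 14.0% lower in the fasted genotype comparison. In the fed genotype comparison these shares were 2.52% and 2.25%. The macrophage list, which includes Kupffer cell genes, had 8 of 9 measured markers higher in fasted null liver, and the summed level of the list was 1111 units in fasted null and 508 units in fasted wild-type liver, and 865 units in fed null and 843 units in fed wild-type liver. For stellate cells and fibroblasts 4 of 7 were higher, with sums of 2796 and 1569 units in fasted null and fasted wild-type liver. In the fed pools 3 of 7 were higher in null liver, among them Col3a1 (2.61-fold) and Pdgfrb (2.49-fold), with sums of 2082 and 1574 units in fed null and fed wild-type liver. Of 6 measured endothelial markers 2 were higher in fasted null liver (Stab2, 2.03-fold, and Lyve1, 1.61-fold) and 1 was lower (Clec4g, 2.03-fold), and 0 passed the threshold in the fed pools. Of 2 measured erythroid genes, Alas2 was 2.15-fold higher in fasted null and 1.61-fold higher in fed null liver than in the matching wild-type pool. The other, Slc4a1, was at least 1.51-fold lower in fed null liver, and its fasted log2 difference was at least 0.10. The erythroid list therefore had no common direction in the fed pools. Exocrine pancreas markers summed to 108 units in fasted null and 884 units in fed null liver. In wild-type liver they summed to 109 units when fasted and 628 units when fed. Most of both fed sums came from Cela1, at 745 units in fed null and 552 units in fed wild-type liver. The other markers of this list read at most 53.3 units (Cela2a in fed null liver). Cela1 was lower after fasting by 13.5-fold in null and 10.2-fold in wild-type liver. Of the exocrine pancreas markers 3 of 4 measured were lower after fasting in null liver (Cela1, Cela2a and Cela3b). In wild-type liver 1 of 3 was lower (Cela1). Among all measured genes 18.4% were lower after fasting in null and 8.76% in wild-type liver. Cpa1 was below the floor on all arrays. Cd68 of the macrophage list, Col1a1, Des and Lrat of the stellate list and Pecam1 of the endothelial list were below the floor on all arrays. Of the 9 hepatocyte markers 1 was higher and 0 were lower (median log2 difference 0.25). The 7 skeletal muscle markers were below the floor on all 4 arrays. In bulk liver fewer cells of a type and less RNA per cell cannot be told apart, and the part of these cells in the differences of the shuttle genes was not tested.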

How the data were processed

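Total liver RNA was extracted with TRIzol, pooled per group and hybridized to Affymetrix MOE430A arrays, with 1 array for each of 4 groups taken from the sample titles. The authors deposited GCRMA intensities in linear units (version 2.20 in the submitters' processing notes), a method that corrects background, normalizes quantiles and summarizes probe sets. Which arrays were normalized as 1 set is not stated. Scanner files were not used. Of 22690 probe sets 64 are controls, 20393 carry 1 gene symbol, 691 carry more and 1606 carry no symbol here.

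Values were converted to log2 and differences between 2 arrays were computed, without a test, at the 1.5-fold threshold of the study's methods for pooled arrays. The number of arrays limits the precision. The members, gene lists and alternatives were chosen with earlier results of these data known. Named genes were the members, Ppara, up to 4 genes of a list by size of difference and the nearest profiles (3 for each member, 5 for their mean). Alternatives changed the fold threshold, the floor, the normalization and the choice of probe sets. The 1.5-fold threshold was checked on simulated data in which bright probe sets alone were changed. The simulated scatter was smaller than that between probe sets of 1 gene. That check therefore does not cover differences of dim genes such as Slc22a5 and Crat. Python 3.11.15 was used with numpy, pandas, statsmodels (lowess) and matplotlib. Promoters are from RefSeq, and protein sequences were not analysed here.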

Additional observations from a re-analysis of the deposited data

Results flagged for a closer look

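Some values had opposite signs under the same contrast. With 1 array per group these differences were not tested, and none of the genes passed 1.5-fold in both directions. The genotype difference of Crat was -1.61 (log2) in fasted and 0.55 in fed liver, and that of Crot was -1.97 in fasted and 0.12 in fed liver. The fasting response of Crot was -1.86 in null and 0.23 in wild-type liver, and that of Cpt2 was -0.082 in null and 1.05 in wild-type liver. The values of 0.55, 0.12, 0.23 and -0.082 were under 1.5-fold, and 0.12, 0.23 and -0.082 were also smaller than the scatter between probe sets of 1 gene in their comparisons. The sign of Cpt2 in null liver was not kept, at 0 with quantile normalization and 0.048 when centred on bright probe sets.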

How the results depend on the processing

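No paired analysis was possible because each group holds 1 array. The number of members lower in null liver, fasted (5) or fed (3), stayed within 1.5 times under all alternatives run, as did the number higher after fasting in wild-type liver. The number higher after fasting in null liver was 4, and was 1 at 2-fold, 2 with a floor at 64 units (log2 of 6) and 2 with the mean of the probe sets. With that mean, which includes probe sets under the floor on all arrays, the median of the fasted genotype difference was -1.55 and that of the difference of the fasting responses -0.91. The fed genotype median was -0.60 without a floor and -0.46 with quantile normalization, which both add Slc22a5, -1.23 with the floor at 64 units, which leaves out Crat, and -1.53 without suffixed probe sets. Without these the wild-type fasting median was 1.40. With the floor at 64 units the null fasting median was 0.089 and that of the difference of the responses -0.84, and the fasted genotype difference of Slc22a5 was -0.54, under the threshold. No member difference past 1.5-fold changed sign, in 173 recomputed values of which 162 stayed past it. Centring on bright probe sets moved the median of all genes from -0.02 to 0.11 in the fasted genotype comparison and from -0.02 to 0.09 for fasting in null liver. The share of lower genes among those past 1.5-fold was then 44.9% in place of 61.4%, and 47.6% in place of 59.1%. The members' values moved with it, and Cpt1a had -0.16 in the fasted genotype comparison, or 0.22 without suffixed probe sets. Slc22a5 and Crat are the dim members, and their values depend most on the floor.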
